A study of Mus musculus with 8 samples.

Results

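Transcripts for respiratory complexes II to V were examined in naive CD8 T cells of the spleen, which have not yet met antigen and can become killer cells. The animals were C57BL/6 mice aged 3 months. Members were taken by symbol (Sdha to Sdhd, and symbols beginning with Uqcr, Cox4 to Cox8 or Atp5), which gave 48 of the 22609 genes in the table: 4 for complex II, 8 for complex III, 19 for complex IV and 17 for complex V. Brca1 wild type (WT) and Brca1 heterozygous (Het) mice gave 4 RNA sequencing libraries each, named here by genotype and title number: WT 45, 54, 57 and 65, and Het 31, 53, 56 and 139. How the Brca1 allele was made, which cells carry it and whether animals were pooled are not given in the labels. They also do not say that libraries came from separate mice, so the p-values describe library-to-library spread, which may be technical.

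In the electron transport chain, complex II (succinate dehydrogenase, also an enzyme of the tricarboxylic acid cycle) passes electrons from succinate to ubiquinone. Complex III passes them on to cytochrome c, and complex IV (cytochrome c oxidase) to oxygen. Complexes III and IV pump protons across the inner mitochondrial membrane, and complex V (ATP synthase) uses the returning protons to make ATP. Naive T cells rely largely on this oxidative route, and all subunits of complex II but only part of those of complexes III, IV and V are encoded in the nucleus. The table held none of the 9 mitochondrially encoded genes that were looked for, so nuclear genes are described throughout. Of the 48 genes, 4 carry the symbols but are not subunits of these enzymes: Cox4nb (Emc8 in RefSeq, a membrane protein insertion factor), Cox7a2l (a factor of respiratory supercomplexes), and Atp5s and Atp5sl (Dmac2l and Dmac2 in RefSeq).

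Nuclear respiratory genes are known targets of the transcription factors NRF-1, GABP (an ETS factor) and YY1, so promoter windows of 250 bases before to 50 after the RefSeq start (GRCm38.p6) were searched on both strands for their core letters. Of the 37 members with a window, 12 (32.4%) held GCGCANGCG (NRF-1), 12 (32.4%) held CCGGAAG (ETS) and 3 (8.11%) held AAGATGGCG (YY1). Over the 9554 tested genes with a window the shares were 15.7%, 20.7% and 3.68%, and over all 27025 genes with a window 7.03%, 9.93% and 1.64%. A match describes letters in the window and is not a measured binding site. For each complex 1 window, chosen because it holds a match, is shown to let the motif layouts be compared, from 170 bases before to 30 after the start, 5′ to 3′, with the NRF-1 and ETS letters of either strand in capitals. They are Sdhd at chr9:50603820-50604019 (minus strand), Uqcrc1 at chr9:108936478-108936677 (plus strand), Cox6a1 at chr5:115348929-115349128 (minus strand) and Atp5h at chr11:115419890-115420089 (minus strand).
Sdhd: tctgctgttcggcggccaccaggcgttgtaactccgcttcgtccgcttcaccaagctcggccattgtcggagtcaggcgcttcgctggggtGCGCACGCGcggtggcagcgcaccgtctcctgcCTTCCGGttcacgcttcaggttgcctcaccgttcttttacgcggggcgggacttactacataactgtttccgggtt
Uqcrc1: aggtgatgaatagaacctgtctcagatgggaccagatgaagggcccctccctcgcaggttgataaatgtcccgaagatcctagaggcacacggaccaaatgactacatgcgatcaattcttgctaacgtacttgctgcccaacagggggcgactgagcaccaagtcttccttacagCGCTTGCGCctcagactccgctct
Cox6a1: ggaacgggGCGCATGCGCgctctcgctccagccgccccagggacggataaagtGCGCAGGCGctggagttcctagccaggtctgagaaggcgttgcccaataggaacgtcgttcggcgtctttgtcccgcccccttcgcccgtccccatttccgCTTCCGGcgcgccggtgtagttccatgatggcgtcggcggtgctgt
Atp5h: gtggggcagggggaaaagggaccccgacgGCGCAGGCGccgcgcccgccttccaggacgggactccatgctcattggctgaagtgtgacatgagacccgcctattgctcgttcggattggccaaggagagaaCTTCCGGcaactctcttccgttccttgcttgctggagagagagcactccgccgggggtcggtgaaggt
In Sdhd, Cox6a1 and Atp5h the NRF-1 letters lay upstream of the ETS letters. In Uqcrc1 the NRF-1 matches began after the start, at bases 7, 31 and 32, and no ETS match was found in the window. Only the first of these matches lies in the stretch shown, which ends at base 30.

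The deposited values of the 8 libraries have nearly equal totals, so these carry no depth. Sorted from high to low, the values of the first 1000 ranks lay within 1% of each other in all 8 libraries, and 537 of them were identical. Each printed value thus gives a gene's rank within its library on a nearly common scale, and differences between libraries reflect such ranks. The lowest value above 0 lay at 0.2 to 0.3 in WT libraries but 0.9 to 1.9 in the Het libraries, and genes above 0 numbered 15358 to 15569 in WT and 13863 to 14656 in Het. The 11 markers of the labelled cells, among them Cd8a and Cd3e, were found in every library, with a summed normalized read count of 308554 to 336353 in WT and 324018 to 360174 in Het.

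Of the 48 members, 36 had a mean normalized read count of at least 100. Levels between genes are compared as normalized read count per kilobase of the principal GENCODE transcript, averaged over the 8 libraries. The highest were Atp5b, the catalytic beta subunit of ATP synthase, at 11921, Cox4i1, the regulatory subunit 4 of cytochrome c oxidase, at 10313, and Uqcrh, the hinge protein of complex III, at 10004. Atp5a1, the alpha subunit that alternates with beta in the catalytic head, was at 7966. Among the subunits with low levels were Cox7c at 60.9, Atp5l (the g subunit) at 36.9 and Atp5g2 (a gene for the membrane ring subunit c) at 16.3. For these genes matching sequence exists elsewhere: 53.0%, 84.8% and 87.4% of the 50-base stretches in the transcripts of Cox7c, Atp5l and Atp5g2 also occur in annotated transcripts of other genes, while 21 of the 48 members share none. Reads of such genes could be counted for a copy or for none, so the values of the 6 members with at least 40% shared, which also include Uqcrb, Atp5h and Atp5o, are uncertain. Other members paired level and share differently: Atp5h and Atp5o, with 47.9% and 50.3% shared, were at 1702 and 2095 per kilobase. Atp5g1, a further gene for subunit c, was at 8.83 on a principal transcript of 4715 bases. On that transcript the shared part was 11.6%, found in transcripts of 366 other genes. The transcript is longer than the RefSeq gene (chr11:96072793-96075694), so both values of Atp5g1 depend on which transcript is taken. Cox6b2, a testis form, was at 21.3 with 0%. Whether shared sequence lowers any of these values was not tested. Of the genes for subunit c, Atp5g3 was at 5025 per kilobase and shared no stretch.

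Isoforms known from muscle, brown fat, lung or testis were at or near 0. Cox4i2 and Cox7b2 were listed at 0 in 7 libraries, Cox8b in 7, and Cox8c in all 8. Cox6a2, the striated muscle form, was between 0 and 4.9, and Cox7a1, the heart and muscle form, was at 0.4, 0.7, 2.9 and 2.5 across WT 45, 54, 57 and 65, against 3.2, 4.1, 3.2 and 7.9 across Het 31, 53, 56 and 139. All Het values of Cox7a1 lay above all WT values, by a gap (2.9 to 3.2) smaller than the lowest value above 0 of any Het library. These 6 genes missed the filter, a mean normalized read count of 10 or more. Cox6b2, the testis form of subunit 6b, passed it, at 16.6, 8.8, 5.8 and 7.4 (WT) against 13.2, 24.8, 7.7 and 15.6 (Het). The ubiquitous partners were far higher: Cox6b1 had a mean of 2730 over the 8 libraries, Cox6a1 of 4026, Cox7a2 of 1660, Cox7b of 1907, Cox8a of 3492 and Cox4i1 of 7889.

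With the genotypes compared gene by gene, most members had a higher mean in Het, by small amounts, and none passed the test. The test was limma on log2(value + 1), with Benjamini-Hochberg adjustment over the 12048 genes past that filter and a threshold of 0.05. Of the 42 tested members, 36 (85.7%) had a higher and 6 a lower mean log2 level in Het, where 52% of all tested genes were higher. The median log2 difference was 0.21, against 0.01 over all tested genes. By limma 0 members were called in either direction, where 0.515% of all tested genes were called lower and 0% higher in Het. At an unadjusted p under 0.05, 2 members (Atp5h and Uqcrc2) were higher and 0 lower, beside 3.79% and 4.4% of all genes. All 4 Het libraries lay above all 4 WT libraries in 1 member, Uqcrc2, and below them in 0, beside 2.13% and 2.86% of all genes. The counts of single genes were thus near the shares over all genes.

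**Figure D1:**
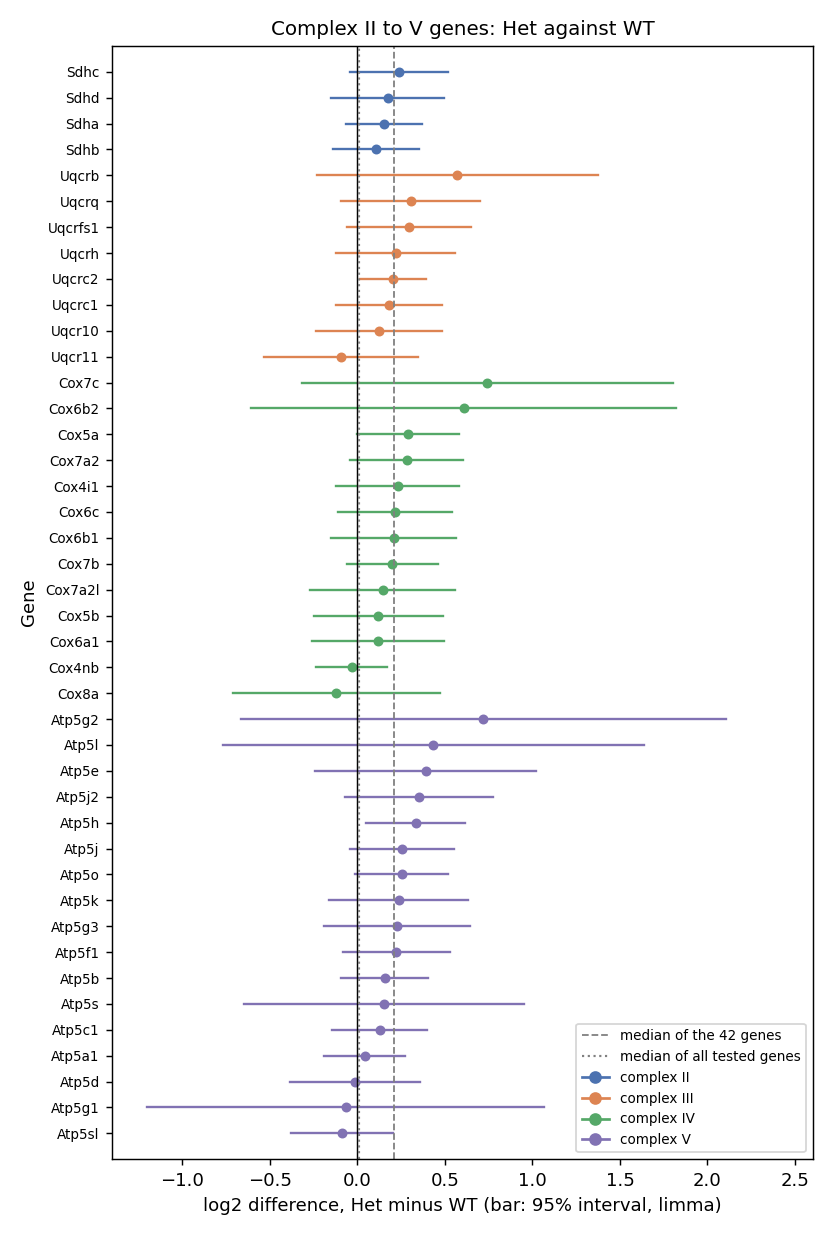
Log2 difference, Het minus WT, of the 42 tested genes of complexes II to V (point) with its 95% interval from limma (bar), coloured by complex. Points lie mostly to the right of 0, around the dashed median of 0.21, and the intervals of 40 genes cross 0.

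Without Het 31 and Het 139, 20 of 42 members were higher and 22 lower in Het, with a median log2 difference of -0.014. Of all genes tested in that setting 52.3% were higher. These 2 libraries had the highest medians over the members. Leaving them out thus had to lower the Het side, and it does not test the members' higher means. With Het 31 alone left out the median was 0.13, and with Het 139 alone left out 0.15. Of the 25 named genes that were tested, 14 had a difference over 1.5 times smaller without Het 31, among them Sdhb (0.02), Sdhd (0.04) and Cox4i1 (0.11). Those libraries were the 2 highest of the 8 in 23 of the 42 members (54.8%), beside 13% of all tested genes. The values that moved with them are given after the complexes.

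In complex II, all 4 subunits had higher means in Het, with a median log2 difference of 0.16. Sdhc, a membrane anchor of the enzyme, was at 1511.5, 1649.5, 1654.2 and 1780 across WT 45, 54, 57 and 65, against 2397.1, 1834.8, 1572.4 and 2058.3 across Het 31, 53, 56 and 139. Het 31, 53 and 139 lay above every WT library and Het 56 inside the WT range. The means were 1649 ± 109.7 and 1966 ± 349.5 (SD, n = 4 each), and the log2 difference was 0.24 (95% interval -0.04 to 0.52, SE 0.13, limma adjusted p = 0.653).

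Sdha, the flavoprotein that oxidizes succinate, measured 7934.6, 9470.5, 8491.9 and 8457.3 across WT against 10633.3, 9173.8, 8433.7 and 10040.8 across Het. Its genotypes overlapped, with Het 31 and 139 on top (log2 difference 0.15, 95% interval -0.06 to 0.37, limma adjusted p = 0.690). Sdhb, the iron-sulfur subunit, measured 2326.2, 2590.4, 2495.9 and 2476.2 across WT against 3196.7, 2291.4, 2425.8 and 2811.4 across Het. Het 53 was the lowest of all 8 libraries for Sdhb and Het 31 the highest (log2 difference 0.11, 95% interval -0.14 to 0.35, limma adjusted p = 0.790). Sdhd, the other membrane anchor, measured 1947.5, 2317, 2084.8 and 2432.1 across WT against 3273.2, 2413.5, 1947.2 and 2406.7 across Het. In Sdhd only Het 31 lay above the WT range (log2 difference 0.17, 95% interval -0.15 to 0.50, limma adjusted p = 0.754).

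In complex III, 7 of 8 genes had higher means in Het, with a median log2 difference of 0.21. Uqcrc2, a core protein of the matrix side, measured 5151.2, 4882.2, 4796.8 and 5027.4 across WT against 6204.1, 5372.3, 5222.2 and 6099.4 across Het. Het 53 and 56 lay just above the highest WT library, and Het 31 and 139 well above it. The means were 4964 ± 157 and 5725 ± 499 (SD, n = 4 each), and the log2 difference was 0.20 (95% interval 0.01 to 0.39, SE 0.09). Its limma adjusted p was 0.584, and its exact permutation p was 0.0286, the smallest that 4 against 4 libraries can give. A share of 24.8% of its 50-base stretches occurs in 1 other annotated gene.

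Uqcrfs1, the Rieske iron-sulfur protein that takes electrons from ubiquinol, measured 2201.2, 2244.5, 2286.9 and 2714.2 across WT against 3787.3, 2867.7, 2092.9 and 3059.1 across Het. Het 56 was the lowest and Het 31 the highest of the 8 (log2 difference 0.30, 95% interval -0.06 to 0.65, limma adjusted p = 0.653). Uqcrq, a small subunit that contacts cytochrome b, measured 1110.5, 1175.4, 1286.6 and 1236 across WT against 1864.5, 1227.8, 1088.8 and 1936.3 across Het. Here Het 31 and 139 stood apart and the other Het libraries did not exceed WT 65 and 57 (log2 difference 0.30, 95% interval -0.09 to 0.70, limma adjusted p = 0.664). Uqcrh, at 4240.9 to 5675.4 (WT) against 4642.3 to 7308.7 (Het), had the same 2 libraries on top (log2 difference 0.22, limma adjusted p = 0.717).

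Uqcrb, known as the ubiquinone-binding protein, followed a different order of libraries: 153.7, 150.3, 237.3 and 389 across WT 45, 54, 57 and 65, against 485.6, 449.9, 225.6 and 212.4 across Het 31, 53, 56 and 139. Het 139 and 56 lay inside the WT range, and its log2 difference of 0.57 had a 95% interval of -0.23 to 1.38 (limma adjusted p = 0.690). Uqcr11, a small accessory subunit, was the 1 member of the complex with a lower mean in Het. It measured 716.2, 768.4, 711.1 and 545.2 across WT against 689.9, 483.5, 534.7 and 916.2 across Het (log2 difference -0.10, 95% interval -0.54 to 0.34, limma adjusted p = 0.900). Het libraries were both the lowest and the highest of the 8, and without Het 53 the difference was 0.04. Uqcrc1 and Uqcr10 had log2 differences of 0.18 and 0.12. Cyc1, the cytochrome c1 of this complex, does not carry the Uqcr prefix and was at 2613 to 3043.5 (WT) against 2700.4 to 4032.1 (Het) (log2 difference 0.19, limma adjusted p = 0.690).

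In complex IV, 11 of 13 tested genes had higher means in Het, with a median log2 difference of 0.21. Cox5a, a matrix-side subunit, measured 1292, 1453.8, 1477.6 and 1504.8 across WT against 2154.1, 1651.1, 1392.9 and 1878.1 across Het. Het 31, 53 and 139 exceeded all WT libraries and Het 56 did not. The means were 1432 ± 95.7 and 1769 ± 324 (SD, n = 4 each), and the log2 difference was 0.29 (95% interval -0.00 to 0.58, SE 0.13, limma adjusted p = 0.609).

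Cox7a2, the widely expressed form of subunit 7a, was tightly grouped in WT at 1488.9, 1471.2, 1440.2 and 1526.8, and spread in Het at 2224.9, 1566.2, 1405.2 and 2154.5. Het libraries 31 and 139 were far above WT, Het 53 just above it and Het 56 below it (log2 difference 0.28, 95% interval -0.04 to 0.61, limma adjusted p = 0.652). Cox4i1 measured 6568.3, 8001.6, 7142.9 and 6997.8 across WT against 10817.7, 7253, 6385.7 and 9947.1 across Het, again with Het 31 and 139 alone above WT (log2 difference 0.23, 95% interval -0.12 to 0.58, limma adjusted p = 0.708). Cox7b was at 1587.6 to 2067.6 (WT) against 1793.1 to 2279 (Het) (log2 difference 0.20, limma adjusted p = 0.664). Cox6b1 and Cox6c had log2 differences of 0.21 and 0.21. Cox7c, at 40.6, 10.8, 17.1 and 33.8 (WT) against 47.7, 52.3, 22.9 and 38.1 (Het), had the largest difference of the members (0.74), with an interval of -0.32 to 1.80.

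Cox8a, the widely expressed form of subunit 8, had a lower mean in Het. It was at 3399.6, 4291.5, 4369.2 and 2337.3 across WT 45, 54, 57 and 65, against 3119.9, 1969.8, 3543.6 and 4907.5 across Het 31, 53, 56 and 139. The lowest values were in 1 library of each genotype, WT 65 and Het 53, and the highest was in Het 139. The means were 3599 ± 949 and 3385 ± 1213 (SD, n = 4 each), and the log2 difference was -0.12 (95% interval -0.71 to 0.47, SE 0.27, limma adjusted p = 0.908), and without Het 53 the difference was 0.12. Cox6a1 was likewise lowest in Het 53 (3017.9) and WT 65 (3119.9) and highest in Het 139 (5305), with a log2 difference of 0.12 and -0.00 without Het 139. Cox5b had a log2 difference of 0.12. Of the genes that are no subunit, Cox7a2l was at 0.15 and Cox4nb at -0.03, the latter between 936.5 and 1075 in all 8 libraries.

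**Figure D2:**
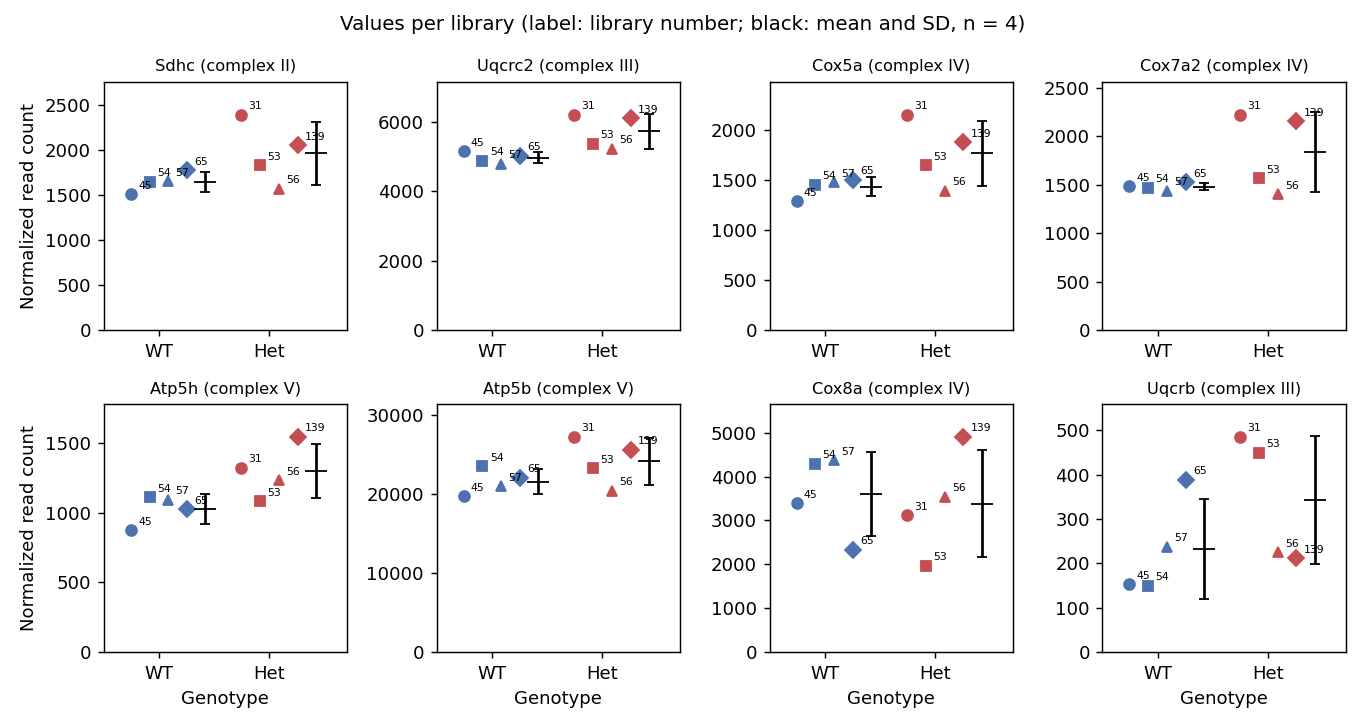
Normalized read count (linear axis from 0) of 8 genes of complexes II to V in each library, with library numbers beside the points and the mean ± SD (n = 4) of each genotype in black. Het 31 and Het 139 are the top points in Sdhc, Uqcrc2, Cox5a, Cox7a2, Atp5h and Atp5b, while Cox8a is lowest in WT 65 and Het 53 and Uqcrb has Het 31 and Het 53 on top.

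In complex V, 14 of 17 genes had higher means in Het, with a median log2 difference of 0.23. Atp5h, the d subunit of the peripheral stalk, measured 872.8, 1112.6, 1092.6 and 1023.9 across WT against 1324, 1081.8, 1234.1 and 1545 across Het. Only Het 53 lay inside the WT range. The means were 1025 ± 109 and 1296 ± 194 (SD, n = 4 each), and the log2 difference was 0.33 (95% interval 0.05 to 0.62, SE 0.13). Atp5h had the smallest limma p of all members, with an adjusted p of 0.529 and an exact permutation p of 0.0857.

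Atp5o, the stalk subunit that confers oligomycin sensitivity, measured 1434.7, 1698.4, 1552.8 and 1700.1 across WT against 2295.3, 1770.5, 1598.4 and 1996.6 across Het (log2 difference 0.25, 95% interval -0.01 to 0.52, limma adjusted p = 0.640). Het 31, 53 and 139 exceeded every WT library and Het 56 did not. Atp5j, coupling factor 6, measured 1581.1, 1670.9, 1664.8 and 1521.2 across WT against 2238.4, 1571.4, 1655.1 and 2329.2 across Het (log2 difference 0.25, 95% interval -0.04 to 0.55, limma adjusted p = 0.653). Atp5j2, the f subunit of the membrane part, measured 972.2, 987.4, 1137.3 and 1331.1 across WT against 1912.9, 1405.7, 958.4 and 1490.3 across Het (log2 difference 0.35, 95% interval -0.07 to 0.77, limma adjusted p = 0.653). In Atp5j the WT values were close together and Het 53 and 56 lay among them, whereas in Atp5j2 Het 56 was the lowest library of all.

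Atp5b, the most abundant member, measured 19747.2, 23501.9, 20945.4 and 22032.6 across WT against 27228.5, 23263.2, 20427.4 and 25573.1 across Het (log2 difference 0.16, 95% interval -0.09 to 0.41, limma adjusted p = 0.718). Atp5a1, which pairs with it in the head, was at 18405.6 to 21126.5 (WT) against 17469.1 to 22690.1 (Het) (0.04, 95% interval -0.19 to 0.27, limma adjusted p = 0.919). Atp5c1, the gamma subunit of the rotor, had a log2 difference of 0.13, and Atp5e, the epsilon subunit, of 0.39, with Atp5e at 5079.9 in Het 31 and at 1650.7 to 3009.6 elsewhere. The peripheral stalk subunit Atp5f1 had a log2 difference of 0.22, the small membrane subunit Atp5k of 0.24 and Atp5g3 of 0.23, and each was highest in Het 31 or Het 139. At low mean levels of 11.9, 20.1 and 73.8, the differences of Atp5g2 (0.72, interval -0.67 to 2.11), Atp5l (0.43, -0.77 to 1.64) and Atp5s (0.15, -0.65 to 0.95) had wide intervals. Lower mean log2 levels in Het were found for Atp5sl (-0.09), Atp5g1 (-0.07, interval -1.20 to 1.07 at a mean level of 41.6) and the delta subunit Atp5d (-0.01).

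Each of the 4 complexes had its highest library medians in Het 31 and Het 139. Each gene's log2 level was taken relative to its mean over the 8 libraries, and the median over members was 0.32 in Het 31 and 0.28 in Het 139. It was -0.06 and -0.15 in Het 53 and 56 and between -0.17 and -0.00 in the WT libraries. In Het 31 and Het 139 the medians were 0.37 and 0.14 for complex II, 0.42 and 0.21 for complex III, 0.27 and 0.40 for complex IV and 0.26 and 0.27 for complex V. Het 56 was the lowest library in 12 of the 42 members and WT 45 in 9. For complex I, whose 36 tested genes (symbols beginning with Nduf) were higher in Het in 30, the medians were 0.28 in Het 31 and 0.30 in Het 139, and 0.01 or less in the other 6 libraries. Whether complexes II to V differ from complex I was not tested.

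**Figure D3:**
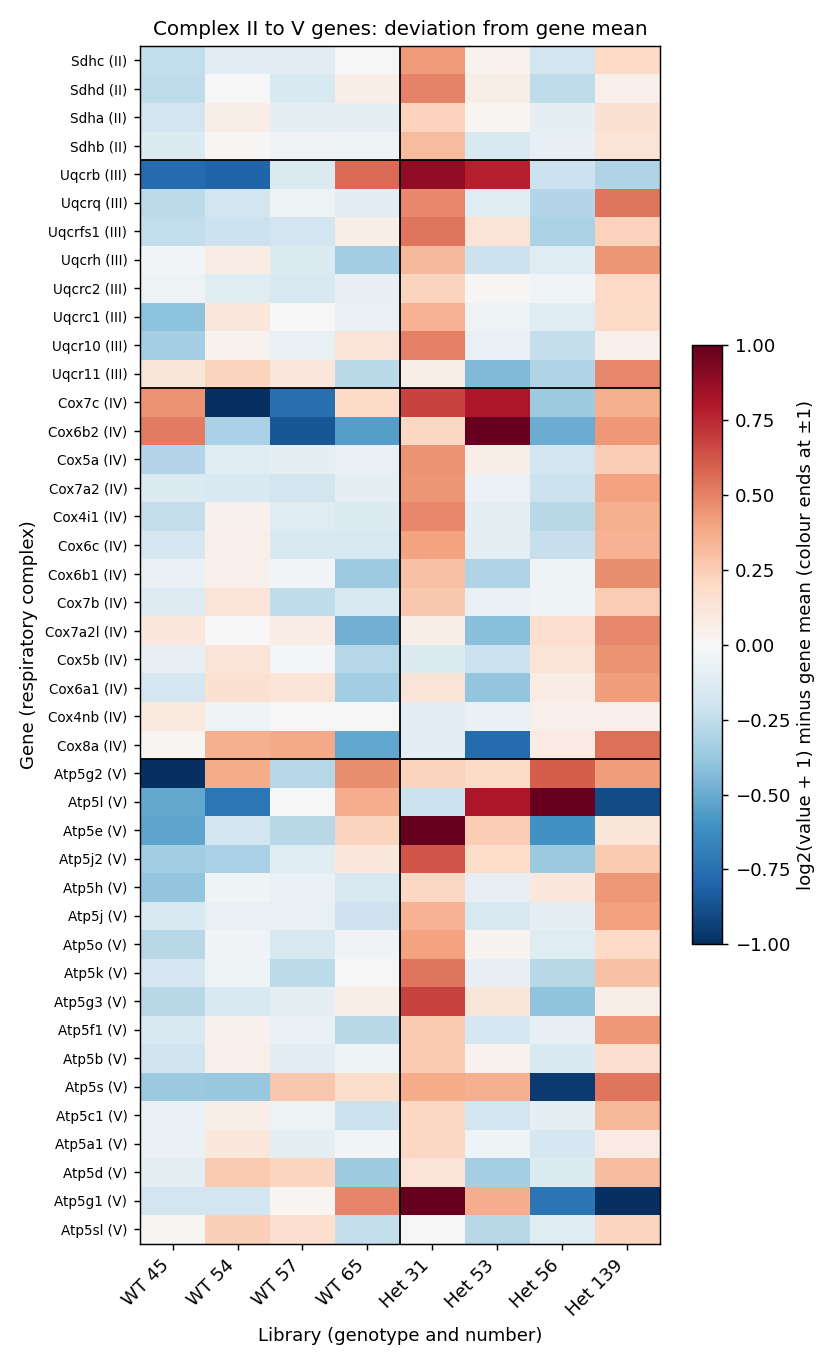
Deviation of each of the 42 tested genes (rows, grouped by complex) from its mean log2(value + 1) over the 8 libraries (columns), with red above and blue below the gene's mean and colours ending at ±1. Het 31 and Het 139 are red in most rows of every complex, and WT 65 and Het 53 are blue in Cox6b1, Cox7a2l, Cox5b, Cox6a1 and Cox8a of complex IV.

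Transcript length moved with the same libraries. Across 9224 tested genes with a mean level above 100, which are not independent replicates, the deviation from the gene mean had a Spearman correlation with transcript length of -0.38 in Het 31 and -0.47 in Het 139. In Het 53 and 56 it was 0.34 and 0.25, and in the WT libraries it lay between -0.26 and 0.37. The 36 members at that level had a median length of 910 bases against 3032 over the 9224 genes. Among those 36 the Spearman correlation with length was -0.32 in Het 31 and -0.25 in Het 139. Whether length or another property of these libraries accounts for the members' values was not tested. Each library was also corrected for transcript length and GC content by splines, a setting chosen after the data had been seen. The splines were fitted over matched genes with a mean of at least 100 and applied to all matched genes, lower members included. After this correction 31 of 42 members were higher in Het and the median log2 difference was 0.07 in place of 0.21. The medians were 0.09 in complex II, 0.14 in complex III, 0.01 in complex IV and 0.10 in complex V. The corrected median deviation was 0.18 in Het 31 and 0.07 in Het 139, and between -0.09 and 0.03 in the other libraries.

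**Figure D4:**
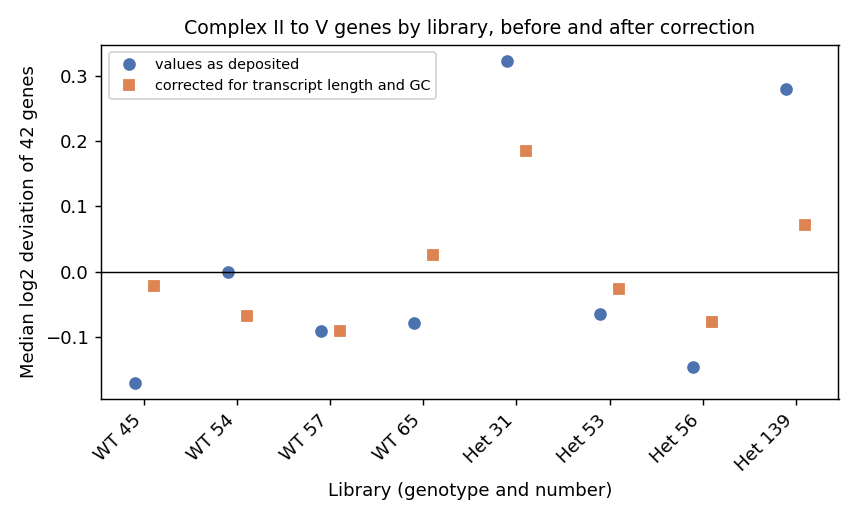
Median log2 deviation of the 42 tested genes from their gene means in each library, for the values as deposited (circles) and after correction for transcript length and GC content (squares). The correction lowers Het 31 from 0.32 to 0.18 and Het 139 from 0.28 to 0.07, and raises WT 45 from -0.17 to -0.02.

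Markers of other blood cells were also unequal. The summed normalized read count of the 13 B cell markers was 64864.9 in Het 31, 20950 in Het 139, 25913.3 and 10892.1 in Het 53 and 56, and 9943.6 to 26491.8 in WT libraries. The 9 NK cell markers summed to 10261.9 in Het 31 and to 5363.7 to 6479.4 in the other 7 libraries. In those 7, Prf1 (2608.6 to 3315.1) and Eomes (980 to 1879.6) weighed heavily in the sums. Klrb1c ran from 67.1 to 431 there. The mean log2(value + 1) of the NK cell markers ran from 6.17 to 7.69 there and was 8.43 in Het 31. The 9 myeloid markers found summed to 15592.1 in Het 31, 16605.4 in Het 139 and 8871.4 to 11540.5 in the other 6. Of these, Ctss alone was at 11047 in Het 139. The mean log2 level of the myeloid markers was 9.07 in Het 31, 8.74 in Het 139, 8.60 in Het 53 and 7.43 to 8.47 elsewhere. In all libraries 1 of the NK cell markers was at 0, and 0 of the B cell or myeloid markers were. The mean log2(value + 1) of the 13 B cell markers was 11.11 in Het 31 and 9.42 in Het 139. It was 10.05 and 8.80 in Het 53 and 56 and 8.50 to 9.92 in WT libraries. With this mean as a covariate, 34 of 42 members were higher in Het and the median log2 difference was 0.13. By complex it was 0.07 in II, 0.17 in III, 0.18 in IV and 0.10 in V. The 8 neuron and nerve markers summed to 1475.7 to 3907.8 (WT) against 158.2 to 379.8 (Het), and the 6 fibroblast markers to 843.9 to 5093.5 and 183.5 to 821.9. The striated muscle markers summed to 341.2 in Het 56 and 41.1 to 142.2 elsewhere, and those of red cells and platelets to 337 to 989. Of the 8 red cell and platelet markers, 2 (the globin genes Hba-a1 and Hbb-b1) were at 0 in all libraries. The part of the myeloid, NK cell, nerve, fibroblast, muscle and red cell markers in the result was not tested. In bulk RNA, a change in the mix of cells and a change in RNA per cell cannot be told apart.

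A second pattern ran across both genotypes. WT 65 and Het 53 were the 2 lowest libraries in 11 of the 42 members (26.2%), beside 9.67% of all tested genes. These were Cox5b, Cox6a1, Cox6b1, Cox7a2l and Cox8a of complex IV, Uqcrh of complex III, and Atp5c1, Atp5d, Atp5f1, Atp5j and Atp5sl. Among the 36 members with a mean of at least 100, both libraries lay above the gene's mean in Uqcrb, Atp5e, Atp5j2, Atp5g3, Uqcrfs1 and Sdhd. Over the same 36 members, whose values share the same libraries, the deviation had a Pearson correlation with transcript GC content of -0.54 in Het 53 and -0.35 in WT 65 (Spearman -0.38 and -0.16), and of 0.54 in WT 57 and 0.51 in WT 54. The 11 members lowest in WT 65 and Het 53 had a median GC content of 51.0% and the other 25 of 50.5%. Over the 9224 genes the Spearman values were -0.49 and -0.26 in Het 53 and WT 65 and 0.43 and 0.40 in WT 57 and 54. Without Het 53 and WT 65, 36 of 42 members were higher in Het and the median log2 difference was 0.25.

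**Figure D5:**
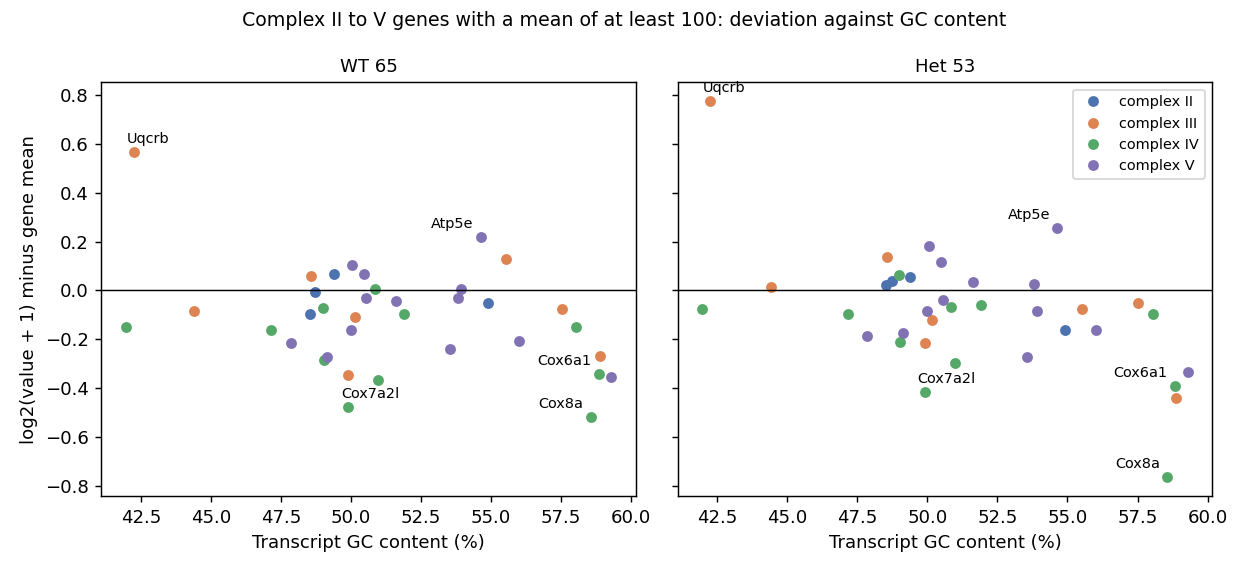
Deviation from the gene mean, in log2(value + 1), against transcript GC content for the 36 genes at a mean of 100 or more, in WT 65 (left) and Het 53 (right), coloured by complex. Cox8a and Cox6a1, among the most GC-rich, lie low in both libraries and Uqcrb, among the least GC-rich, lies high, while Cox7a2l, at 49.9% GC, lies low as well.

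Genes that build and serve the complexes were compared from lists written for this purpose, and by limma no member of any passed the test. Of the assembly factors of complexes II to V, 18 of 23 tested were higher in Het (median log2 difference 0.19), and 3 were higher and 0 lower at an unadjusted p under 0.05, where 3.79% and 4.4% of all tested genes were. Sco2, a copper chaperone for complex IV, measured 64.4, 71.8, 74.5 and 118.4 across WT against 183.9, 141, 83.1 and 129.2 across Het (log2 difference 0.69, 95% interval 0.03 to 1.34, limma adjusted p = 0.591). Lyrm7, which helps to insert Uqcrfs1 into complex III, was at 242 ± 40.7 and 331 ± 67.2 (SD, n = 4 each, limma adjusted p = 0.601). Sdhaf2, which attaches the flavin to Sdha, was at 1514 ± 145 and 1739 ± 42.7 (SD, n = 4 each, limma adjusted p = 0.608).

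Of 4 further genes of complexes IV and V under other symbols, 3 were higher, with Ndufa4, now counted to complex IV, at 1771 ± 321 (WT) against 2321 ± 772 (Het, SD, n = 4 each, limma adjusted p = 0.690). Electron carriers and the enzymes that make or feed ubiquinone were split into 9 higher and 7 lower genes (median 0.05). Pdss1, which makes the ubiquinone side chain, measured 67.1, 111.8, 73.6 and 88 across WT against 123.5, 113, 161.3 and 148.2 across Het, without overlap (log2 difference 0.69, 95% interval 0.16 to 1.21, limma adjusted p = 0.447). Etfdh, which feeds electrons from fatty acid oxidation, was at 1396.1 to 1522.5 (WT) against 1207.8 to 1314.7 (Het), also without overlap (-0.19, limma adjusted p = 0.609). These were 1 gene above and 1 below of 16, beside 2.13% and 2.86% of all tested genes without overlap. In Etfdh, Het 53 (1314.7) and Het 56 (1310.8) lay below the lowest WT library (1396.1). In Pdss1, Het 56 was the highest library, whereas Het 53 (113) lay only just above WT 54 (111.8).

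The tricarboxylic acid cycle list, apart from complex II, was near 0, with 9 of 13 genes higher, a median of 0.04 and no difference beyond -0.03 or 0.17. The 6 genes for ATP export, phosphate import and the outer membrane pore were all higher in Het (median 0.16), led by Slc25a5, an ADP and ATP exchanger, at 3165.5, 3572.8, 3420.9 and 3646.7 (WT) against 5491.1, 3908.7, 3130.3 and 4340.2 (Het) (limma adjusted p = 0.660). Of 14 regulators of respiratory genes, 4 were higher and 10 lower (median -0.05). Among them Yy1 was at 3203 ± 209.7 and 3584 ± 121 (limma adjusted p = 0.642), Tfam, which packages and transcribes mitochondrial DNA, at 1879 ± 126 and 2236 ± 346 (0.646), and Polrmt, the mitochondrial RNA polymerase, at 2319 ± 214 and 2011 ± 174 (0.640, SD, n = 4 each). Nrf1 and the GABP genes Gabpa, Gabpb1 and Gabpb2 were lower in Het, with log2 differences of -0.11, -0.10, -0.04 and -0.04.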

How the data were processed

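RNA sequencing of naive CD8 T cells gave 4 WT and 4 Het libraries. The deposited table holds, for every gene, a normalized read count with 1 decimal, treated here as a linear signal. Per the submitters' processing notes, CASAVA, TopHat2, HTSeq, DESeq and mouse build mm9 were involved, with no role or version named. No source used here states the normalization or strand setting. The deposited signal sums to nearly the same total in all 8 libraries, and its sorted values are nearly the same in each, as after quantile normalization, a step that no source names. Depth is thus unknown and differences in total RNA are not visible.

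Genes with a mean of at least 10 were tested by limma 3.58.1 (R 4.3.3, trended prior) on log2(value + 1), a scale that understates changes of low genes, with Benjamini-Hochberg adjustment over 12048 genes. Exact permutation tests were 2-sided over 70 assignments of mean log2 values. The fit was tested on simulated data. Members and lists were chosen with earlier results of these data known, so lists are described by counts and medians.

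Named were all complex II genes, in each other complex the 4 tested genes with the smallest p, the most abundant gene and the one with the largest decrease, tissue isoforms with their partners, and up to 3 genes of each pathway list. Genes outside this rule were chosen after their values were seen. Transcript length, GC content and shared 50-base stretches came from GENCODE M21 (GRCm38, another build than the table's), which matched all 48 members and 96.1% of tested genes. Alternatives were pseudocounts of 0.5 and 5, other filters, scaling and limma settings, a B cell covariate and left-out libraries. Leaving out Het 53 with WT 65, and the length and GC correction (splines with 5 degrees of freedom), were added after seeing the data.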

Additional observations from a re-analysis of the deposited data

Results flagged for a closer look

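Libraries far from the other 3 of their genotype were looked for in the 25 named and tested genes, in 50 groups of 4 libraries. Such a library was found in 1 of the 50 groups, where chance flags about 1 group in every 20. A single flagged group is thus not more than chance gives, and the groups share the same 8 libraries. Uqcrfs1, the Rieske protein of complex III, was at 2714.2 in WT 65 and at 2201.2 to 2286.9 in the other WT libraries. The cause was not tested.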

How the results depend on the processing

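No member passed the limma threshold under any alternative run, and the lowest adjusted p of a named gene was 0.159, for Uqcrfs1 without Het 56. In Uqcrfs1, Het 56 (2092.9) was itself the lowest library. At an unadjusted p under 0.05 the members ran from 0 (without Het 31, without Het 139, or with the length and GC correction) to 15 (without Het 56). These 15 were 35.7% of the members, where 16.3% of all genes tested without Het 56 passed, and genes passing made up 8.19% with all libraries. Het 56 had the lowest member median of the Het libraries (-0.15), so leaving it out had to raise the Het side. The 15 thus do not test the members' higher means. Over single left-out libraries, 34 to 39 members were higher and 3 to 8 lower in Het. The median log2 difference then ran from 0.13 to 0.29 over all members, 0.07 to 0.25 in complex II, 0.15 to 0.27 in complex III, 0.13 to 0.30 in complex IV and 0.10 to 0.33 in complex V. Genes changed over the whole table numbered 62, and 11 to 91 over single left-out libraries: 11 without WT 57, 16 without WT 54 or without WT 65, 21 without Het 53, 27 without Het 31 and 30 without Het 139. That count was 123 with any value above 0 tested, 14 with a mean of at least 50, 40 with the B cell covariate, 3 without Het 31 and 139 and 1 without Het 53 and WT 65.

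Without Het 31 and 139, the libraries with the highest member medians, 20 members were higher and 22 lower, a fall that follows in part from that choice. The medians were then -0.0142 over all members, 0.0123 in complex II, -0.0256 in complex III, -0.0238 in complex IV and -0.0157 in complex V. Sdhd (-0.0127), Sdhb (-0.0673), Uqcrq (-0.0539), Uqcrh (-0.0572), Cox4i1 (-0.0731), Cox6a1 (-0.10) and Cox6b1 (-0.0691) changed sign there. With the length and GC correction 11 members were lower, the medians were 0.09 in complex II, 0.14 in complex III, 0.0134 in complex IV and 0.10 in complex V, and Cox7b turned to -0.0300. Over single left-out libraries Uqcr11 ran from -0.27 to 0.0355, Cox8a from -0.32 to 0.12 and Cox6a1 from -0.00459 to 0.27. Without changing sign, Sdhb ran from 0.0173 to 0.18, Sdhd from 0.0375 to 0.29, Cox4i1 from 0.11 to 0.36 and Uqcrh from 0.11 to 0.33. Of 25 named genes, a difference moved by over 1.5 times in 14 without Het 31, 9 without Het 139, 7 without Het 53, 6 without WT 65, 5 without Het 56, 5 without WT 54, 3 without WT 57 and 0 without WT 45. The cause was not tested. No paired analysis was run because the labels do not say which libraries, if any, form pairs.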
